A study of Mus musculus with 6 samples.

Results

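The genes studied here were the CXC chemokine genes that lie together on mouse chromosome 5: Cxcl1, Cxcl2, Cxcl3, Cxcl5, Ppbp and Pf4. They were found by symbol in the deposited count table, which gave 6 genes of 54532, and all 6 passed the filter on low counts that left 14522 genes for testing. The 6 RNA-seq libraries came from macrophages of infarcted hearts of C57BL/6 mice, taken 7 days after permanent coronary occlusion at an age of 12 weeks. In 3 libraries the mice were ITGA5 fl/fl, with both alleles of the integrin α5 gene flanked by recombination sites and intact. In the other 3 the mice were Myα5KO, which carry the floxed alleles and a Cre recombinase driven by the lysozyme M locus, so that the gene is removed in myeloid cells. Cells from digested hearts were depleted of Ly6G+ neutrophils on a magnetic column, and CD11b+ cells were then retained. CD11b is carried by monocytes and other myeloid cells as well as by macrophages, and lysozyme M-Cre acts in macrophages, monocytes and granulocytes, so the deletion was not limited to the cells sequenced. The comparison addresses how the transcripts of these chemokines differ between these genotypes in infarct macrophages. The ITGA5 fl/fl mice are named without Cre, so loss of α5 integrin and the presence of Cre cannot be told apart here.

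Cxcl1, Cxcl2, Cxcl3, Cxcl5 and Ppbp encode ELR chemokines, named after a glutamate-leucine-arginine motif before the first cysteine. They act through the receptor Cxcr2 on neutrophils and draw these cells into injured tissue. In macrophages, Toll-like receptor ligands and interleukin-1 switch on the transcription of such genes through NF-κB, and their mRNAs are short-lived because AU-rich elements in the 3′ UTR recruit decay factors. Ppbp and Pf4 are best known from megakaryocytes and platelets. Ppbp is the precursor of neutrophil-activating peptide, whereas Pf4 (platelet factor 4) lacks the ELR motif and is also transcribed by tissue macrophages.

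All 6 genes lie on the plus strand in build GRCm38. In the order of their coordinates on chromosome 5, Cxcl5 spans 90759360 to 90761624, Ppbp 90768518 to 90770063, Pf4 90772435 to 90773383, Cxcl3 90786103 to 90789600, Cxcl1 90891241 to 90893115 and Cxcl2 90903871 to 90905938. The cluster thus covered 146.6 kb, with Cxcl1 and Cxcl2 at the far end from the other members.

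RefSeq promoter sequences (GRCm38.p6) were matched by symbol for 5 of the 6 genes, all but Cxcl5. They are shown because Cxcl1, Cxcl2 and Cxcl3 shared an 11-base run that was absent from these windows of Ppbp and Pf4. Each line gives, 5′ to 3′ on the plus strand, the 120 bases upstream of the RefSeq start or the count table's start, whichever came first. Capitals mark a match to the NF-κB consensus on either strand and the TATA-like letters ATAAAA on the printed strand. The reverse complement of those letters stays in lower case.
Cxcl1, chr5:90891121-90891240: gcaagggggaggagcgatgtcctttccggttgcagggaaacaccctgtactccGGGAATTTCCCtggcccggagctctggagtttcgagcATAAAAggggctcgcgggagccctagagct
Cxcl2, chr5:90903751-90903870: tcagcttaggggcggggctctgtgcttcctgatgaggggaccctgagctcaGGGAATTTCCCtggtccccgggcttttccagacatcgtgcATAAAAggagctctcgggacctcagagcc
Cxcl3, chr5:90785981-90786100: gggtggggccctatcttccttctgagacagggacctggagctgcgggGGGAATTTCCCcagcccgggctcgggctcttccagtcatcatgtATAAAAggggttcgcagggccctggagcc
Ppbp, chr5:90768398-90768517: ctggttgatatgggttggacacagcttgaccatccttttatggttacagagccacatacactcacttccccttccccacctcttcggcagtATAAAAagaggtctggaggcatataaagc
Pf4, chr5:90772315-90772434: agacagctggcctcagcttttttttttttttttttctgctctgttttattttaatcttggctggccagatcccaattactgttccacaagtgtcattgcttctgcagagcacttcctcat

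The shared run, GGGAATTTCCC, reads the same on both strands apart from its central base, so it holds a pair of overlapping matches to the NF-κB consensus. It began 67 bases before the start of Cxcl1 as the count table gives it, 69 bases before that of Cxcl2 and 75 bases before that of Cxcl3. From the RefSeq starts the distances were 71 bases for Cxcl1, 97 for Cxcl2 and 73 for Cxcl3. Of 32851 mouse promoters of 300 bases in RefSeq, 14 (0.0426%) held these 11 bases on either strand, and 1480 (4.51%) held the NF-κB consensus. The letters ATAAAA were found on either strand in all 5 member promoters and in 18.5% of all promoters. TATAAA was found in those of Ppbp and Cxcl3 and in 13.6% of all, an AP-1 match (TGANTCA) in that of Ppbp and in 7.81% of all, a C/EBP match (TTGCNNAA) in that of Pf4 and in 10.8% of all, and a GATA match (TGATAA) in none of the 5 and in 9.05% of all. A match is a description of the sequence and not evidence of binding.

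The mRNAs differed in AU-rich pentamers as well. In the longest protein-coding transcript of GENCODE M21, the 3′ UTR of Cxcl2 (1494 bases) held 11 copies of ATTTA, that of Cxcl1 (592 bases) held 7, and those of Cxcl3 (645 bases) and Cxcl5 (1111 bases) held 5 each. The 3′ UTRs of Ppbp (656 bases) and Pf4 (123 bases) held 1 each. Per kb of 3′ UTR, Cxcl1 had 11.8 copies, Pf4 8.13, Cxcl3 7.75, Cxcl2 7.36, Cxcl5 4.50 and Ppbp 1.52, and the median of 20940 genes was 1.22. The density of Pf4, from 1 copy in a short 3′ UTR, was thus within the range of the members that fell. The longer form TATTTAT, overlapping ATTTA, occurred 6 times in Cxcl1, 7 in Cxcl2, 2 in Cxcl3 and 1 in Cxcl5, and in neither Ppbp nor Pf4. It was present in 27.5% of all genes. In coding sequence, Cxcl2 and Cxcl3 were the most alike, with 87.7% identity. Over the whole transcripts they shared 61 stretches of 50 bases (6.31% of those in Cxcl3), and none of 150 bases. How reads that match more than 1 gene were counted is not given in the sources used here.

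Itga5, the targeted gene, had 9745, 9666 and 10536 counts in ITGA5 fl/fl against 939, 915 and 895 in Myα5KO, which matches the labels. Total counts ran from 15424451 to 18152357 in ITGA5 fl/fl and from 18232574 to 18419287 in Myα5KO. The libraries of one group correlated at 0.992 to 0.994 over genes and those of different groups at 0.988 to 0.991. The macrophage markers Csf1r (1995 to 2301 CPM) and Adgre1 (1209 to 1394 CPM) were high in every library, and Ly6g stayed under 1 CPM. CPM are counts relative to the library total after TMM scaling. The counts do not distinguish fewer cells of a type from less RNA per cell.

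In Myα5KO macrophages 4 of the 6 chemokines were lower, namely Cxcl1, Cxcl2, Cxcl3 and Cxcl5, and none was higher. Ppbp and Pf4 did not pass the test. Calls were made at an adjusted p of 0.05 or less in edgeR's quasi-likelihood test over all 14522 genes, of which 1271 (8.75%) were called, 754 lower (5.19%) and 517 higher (3.56%). With scaling by library size alone, the split over all genes was 518 lower and 1212 higher, and the same 4 chemokines were lower. The median log2 fold change (Myα5KO over ITGA5 fl/fl) of the 6 members was -0.89, against 0.01 over all tested genes. In 4 of the 6 members every Myα5KO library lay below every ITGA5 fl/fl library in CPM, as in 13.8% of all tested genes. The study reported Cxcl1 and Cxcl2 as decreased in Myα5KO infarct macrophages by PCR array, and Cxcl3 and Cxcl5 as downregulated by RNA-seq. The direction of these 4 genes is therefore not independent evidence. In its cultured bone marrow macrophages, an α5-blocking antibody did not significantly affect Cxcl1 or Cxcl2. A gene set with Cxcl3 and Cxcl5 was not changed consistently in culture, and the study proposes that its fall in vivo may be secondary.

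**Figure D1:**
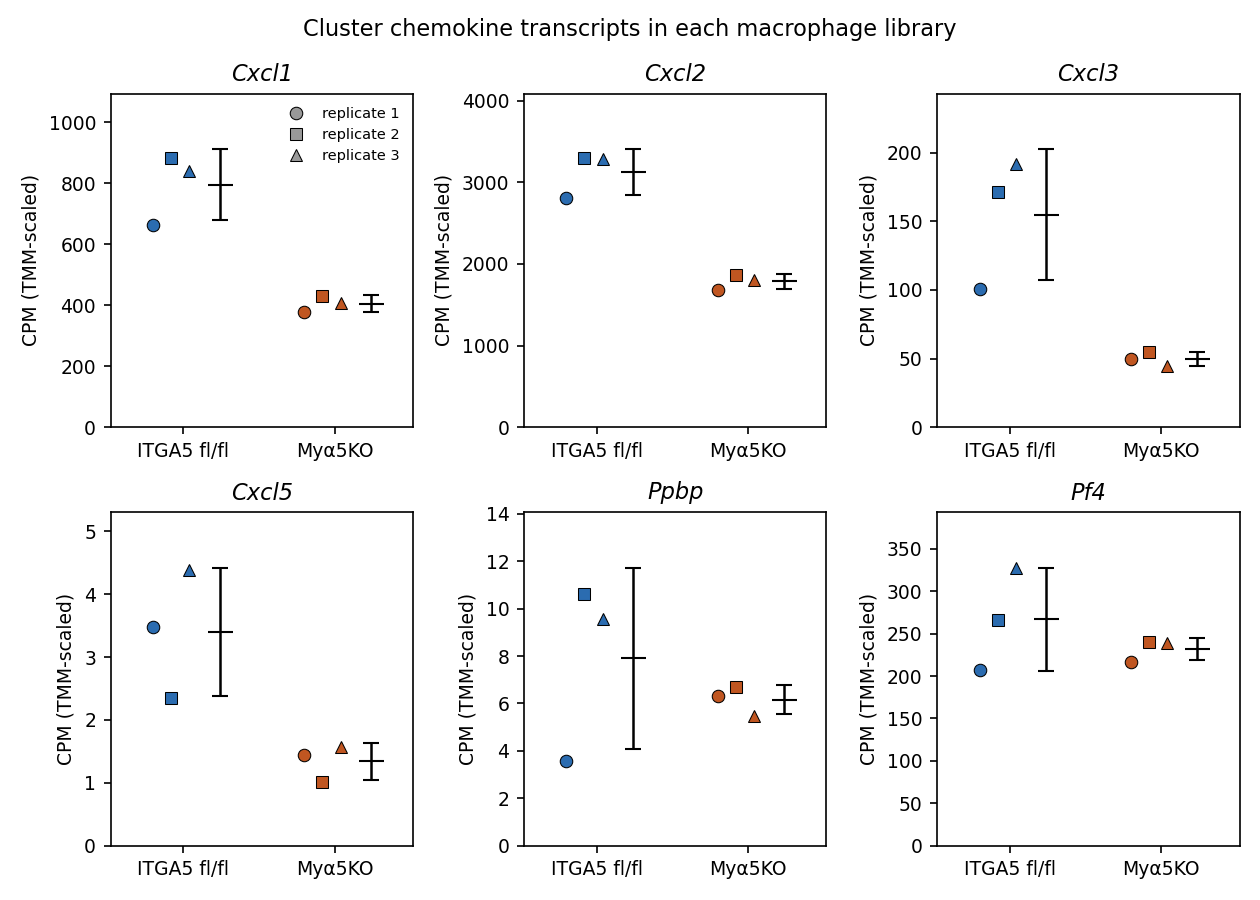
TMM-scaled CPM of each cluster chemokine in each library on linear axes that start at 0, with ITGA5 fl/fl in blue, Myα5KO in orange, and the mean ± SD of 3 libraries in black. Cxcl1, Cxcl2, Cxcl3 and Cxcl5 show no overlap between the groups, whereas Ppbp and Pf4 overlap and their lowest control value is that of replicate 1.

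Cxcl2 (macrophage inflammatory protein 2), the most abundant member per length, stood at 2806, 3294 and 3284 CPM in ITGA5 fl/fl and at 1683, 1868 and 1808 CPM in Myα5KO. The control replicate 1 was the lowest of its group and still far above the highest Myα5KO library. The mean fell from 3128 ± 279 to 1787 ± 94.4 CPM (SD, n = 3 each). This log2 difference of -0.81 (SE 0.08, adjusted p 0.000139 in edgeR) left 57.1% of the control level. Its fold decrease was the smallest estimate among the 4 genes called.

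Cxcl1 (the keratinocyte-derived chemokine KC) followed the same pattern. It was at 662, 883 and 841 CPM in ITGA5 fl/fl and at 377, 432 and 408 CPM in Myα5KO. The mean fell from 795 ± 117 to 405 ± 27.2 CPM (SD, n = 3 each), which is -0.97 on the log2 scale (SE 0.10, adjusted p 0.000128 in edgeR) or 51.0% of the control level. As for Cxcl2, the groups were well apart and control replicate 1 was the lowest control.

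Cxcl3 had the largest fold decrease of the cluster and ranked 18th of 14522 genes by decrease. It was at 101, 171 and 192 CPM in ITGA5 fl/fl and at 50.0, 54.8 and 44.5 CPM in Myα5KO. The controls spread widely, but the lowest of them lay well above the highest Myα5KO library. The mean fell from 155 ± 47.8 to 49.8 ± 5.16 CPM (SD, n = 3 each), which is -1.64 on the log2 scale (SE 0.17, 95% CI -2.01 to -1.26, adjusted p 0.00016 in edgeR) or 32.1% of the control level.

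Cxcl5 (LIX in the mouse), best known from epithelial and stromal cells, was close to the limit of detection. It had 52, 40 and 77 counts in ITGA5 fl/fl (3.49, 2.35 and 4.38 CPM) and 27, 19 and 30 counts in Myα5KO (1.44, 1.02 and 1.58 CPM). The groups did not overlap, though the counts are few. The log2 fold change was -1.34 (SE 0.28, edgeR adjusted p 0.00988), or 39.6% of the control level. Without ITGA5 fl/fl replicate 3 it was -1.11 and no longer called (edgeR adjusted p 0.0631), and with limma on log2(FPKM + 1) it was -0.70 (adjusted p 0.0593).

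Among the platelet-type members the groups overlapped. Ppbp was at 3.55, 10.6 and 9.56 CPM in ITGA5 fl/fl and at 6.33, 6.69 and 5.47 CPM in Myα5KO, so 1 control library lay below all 3 Myα5KO libraries and the others lay above them. Its log2 fold change was -0.37 (SE 0.28, 95% CI -0.97 to 0.22, edgeR adjusted p 0.457). Pf4 was at 207, 266 and 328 CPM in ITGA5 fl/fl and at 217, 240 and 240 CPM in Myα5KO, which gave -0.20 on the log2 scale (SE 0.12, 95% CI -0.47 to 0.06, adjusted p 0.349 in edgeR). The lowest value of all 6 libraries belonged to control replicate 1 in both genes. Without that library the log2 fold changes were -0.71 for Ppbp and -0.36 for Pf4, and both were called lower (edgeR adjusted p 0.0145 and 0.0398). Whether these 2 genes changed thus rests on 1 control library, and the intervals allow a decrease of Ppbp as large as that of Cxcl2.

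**Figure D2:**
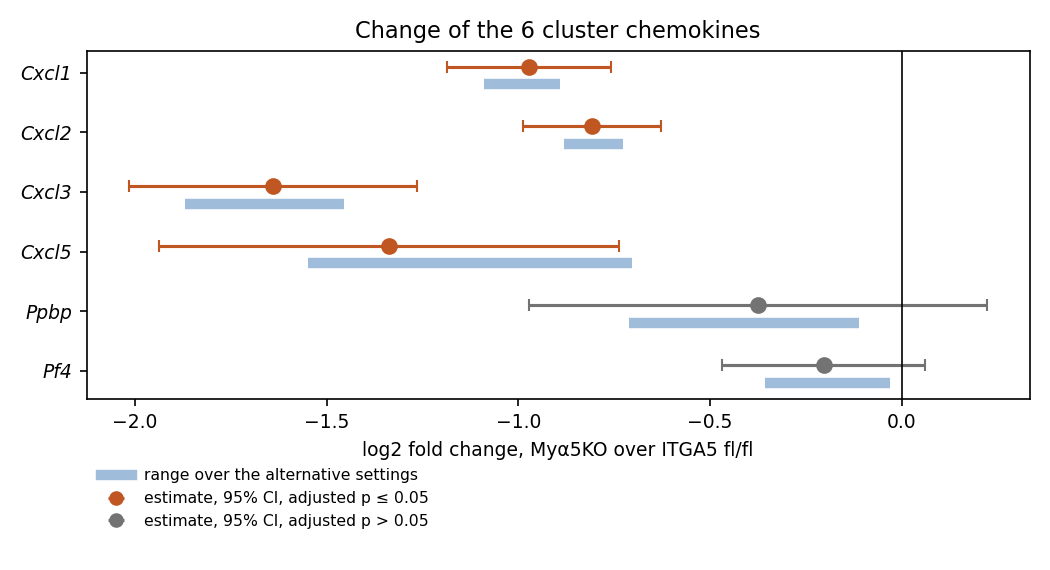
Log2 fold change of each member with its 95% CI from edgeR (points and whiskers, orange where the adjusted p was 0.05 or less) and, as blue bars, the lowest to highest estimate over 16 alternative settings, each library left out in turn included. Cxcl1, Cxcl2 and Cxcl3 stay clear of 0 in every setting, and the bars of Ppbp and Pf4 end at -0.11 and -0.03.

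Control libraries varied more than Myα5KO libraries in all 6 genes. The coefficient of variation in ITGA5 fl/fl was 14.7% for Cxcl1, 8.93% for Cxcl2, 30.9% for Cxcl3, 29.9% for Cxcl5, 48.2% for Ppbp and 22.6% for Pf4. In Myα5KO it lay between 5.28% (Cxcl2) and 21.7% (Cxcl5). Control replicate 1 was the lowest control in every member except Cxcl5, where replicate 2 was the lowest. The same library stood apart in genes of body cavity macrophages, a list of 9 genes whose summed level was 82.2 CPM in it, 281 and 227 CPM in the other controls and 52.4 to 69.6 CPM in Myα5KO. Of these 9 genes 6 were called lower, with Serpinb2 at -2.45, Alox15 at -2.24, Prg4 at -2.24 and Naip1 at -1.27 on the log2 scale, while Gata6, which defines large cavity macrophages, was at 3.35 to 4.29 CPM in ITGA5 fl/fl and 3.03 to 3.37 CPM in Myα5KO and was not called. The number called lower was 3 with limma-voom, 3 without ITGA5 fl/fl replicate 2, 0 on log2(FPKM + 1) and 1 on log2(FPKM + 0.1), where 5 were tested. Their part in the result for the chemokines was not tested. Cxcl1, Cxcl2 and Cxcl3 remained lower without control replicate 1, at -1.09, -0.88 and -1.87.

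Levels of different genes were compared per length, in FPKM, which divide the count by gene length and library depth. In ITGA5 fl/fl the mean order was Cxcl2 (1506 FPKM), Cxcl1 (422), Pf4 (369), Cxcl3 (44.0), Ppbp (7.27) and Cxcl5 (1.82). In Myα5KO it was Cxcl2 (857 FPKM), Pf4 (319), Cxcl1 (215), Cxcl3 (14.1), Ppbp (5.65) and Cxcl5 (0.715). The order was the same in each library but for Cxcl1 and Pf4, where Cxcl1 was above Pf4 in control replicates 1 and 2 and below it in control replicate 3 and all Myα5KO libraries. That exchange depends on the length used. The deposited lengths of Cxcl1 and Cxcl3 are 1.97 and 3.44 times those of their longest protein-coding transcripts, and per such transcript Cxcl1 was above Pf4 in both groups, at 831 against 452 FPKM in ITGA5 fl/fl and at 422 against 391 FPKM in Myα5KO. The 5 ELR members together made 3576, 4362 and 4331 CPM in ITGA5 fl/fl and 2118, 2362 and 2267 CPM in Myα5KO, of which Cxcl2 made 75.5% to 79.8% in every library.

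The estimated decreases differed between members, though no difference passed the test. The ratio of Cxcl2 to Cxcl3 was higher in all Myα5KO libraries than in all controls, by 0.78 on the log2 scale, and so was that of Cxcl1 to Cxcl3, by 0.63. The ratio of Cxcl1 to Cxcl2 ran from 0.236 to 0.268 in ITGA5 fl/fl and from 0.224 to 0.231 in Myα5KO, a change of -0.16 on the log2 scale. Against Pf4, the log2 ratio was lower by 1.41 for Cxcl3, by 1.12 for Cxcl5, by 0.78 for Cxcl1 and by 0.63 for Cxcl2, again with no overlap between groups. In all, 9 of 15 pairs of members did not overlap, each with an exact two-sided permutation p of 0.1, the smallest that 3 against 3 libraries allow (0.167 after Benjamini-Hochberg adjustment over the 15 pairs). This exact test can therefore call no pair at this number of libraries. The 15 pairs reuse the same members, so the 9 are not separate observations. How often pairs of other genes separate in this way was not computed. For the ratios to Pf4 the differences exceeded the pooled SD between libraries (0.19 for Cxcl3, 0.42 for Cxcl5, 0.14 for Cxcl1 and 0.16 for Cxcl2). The ratio of Ppbp to Pf4 changed by -0.03 on the log2 scale (exact permutation p 0.9).

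Genes near the cluster were read from the same fit. Between the first and the last member lay 5 other genes, none of which had enough counts for the test, and 3 of them, Cxcl15 included, had no count at all. Within 500 kb on either side 5 further genes were tested. Areg, the epidermal growth factor receptor ligand amphiregulin, lay 380.2 kb from the start of Cxcl5 and fell with no overlap, from 34.5 ± 7.86 to 21.6 ± 3.42 CPM (SD, n = 3 each, log2 fold change -0.68, SE 0.15, edgeR adjusted p 0.0116). Its neighbour Ereg, which encodes the related ligand epiregulin, was at -0.95 but at only 1.05 to 4.50 CPM and was not called. Ankrd17, Alb and Mthfd2l were at -0.10, -0.32 and 0.06 on the log2 scale and were not called either. The study also reported Areg as downregulated by RNA-seq, so the direction of Areg is not independent evidence.

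**Figure D3:**
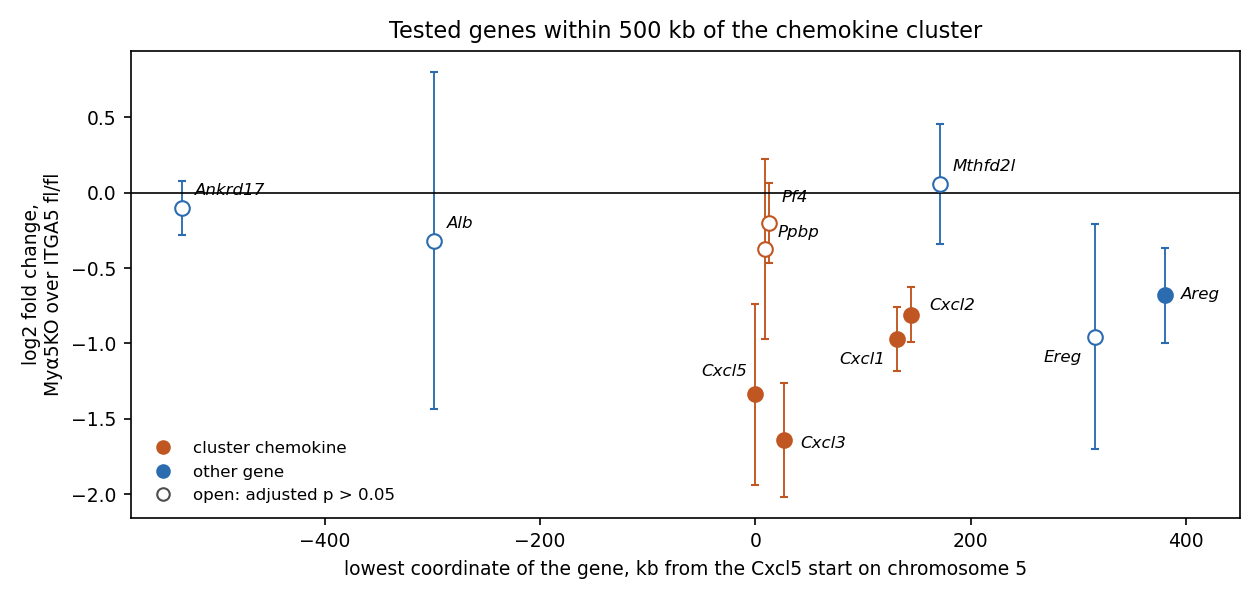
Log2 fold change with 95% CI of the 11 tested genes within 500 kb of the cluster, against the distance of the gene's lowest coordinate from the start of Cxcl5 in kb. Filled points passed the test, and besides the chemokines (orange) only Areg, among the other tested genes of this window (blue), did so.

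Of the receptor genes read, Cxcr2 and Cxcr1 were nearly silent in these cells. Cxcr2 stayed between 0.368 and 0.469 CPM and Cxcr1 under 1 CPM in all libraries, and neither passed the filter on low counts. With DESeq2 and with no count filter they were tested and not called. Cxcr3, a receptor for CXC chemokines, and the decoy receptor Ackr1 passed the filter. They were not called either, except that Cxcr3 was higher without ITGA5 fl/fl replicate 1. The 4 receptor genes summed to 8.14 to 12.5 CPM in ITGA5 fl/fl and to 11.5 to 12.6 CPM in Myα5KO. Of the 7 CXC ligands outside the cluster that were tested, 3 were called higher and 0 lower, with a median log2 fold change of 0.35. Cxcl9 was at 9.18, 12.0 and 9.33 CPM in ITGA5 fl/fl and at 13.4, 31.6 and 15.4 CPM in Myα5KO (log2 fold change 0.98, SE 0.26, edgeR adjusted p 0.0306). Cxcl10 rose by 0.39 and Cxcl12 by 0.35 on the log2 scale (edgeR adjusted p 0.0228 and 0.0359). Cxcl9 and Cxcl10 are interferon-induced ligands that attract T cells through Cxcr3. Cxcl9 was not called by DESeq2 or limma-voom, and with limma on either FPKM scale, log2(FPKM + 1) or log2(FPKM + 0.1), 0 of the list were called. Leaving out any single library left 1 or 2 of the list called higher, and 1 was called lower without ITGA5 fl/fl replicate 1 or without Myα5KO replicate 1.

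Cytokines and receptors that induce ELR chemokines were lower in part. Of 13 tested genes 6 were called lower (Il1a, Il6, Il1r1, Il17ra, Tlr2 and Il1b) and 0 higher, with a median log2 fold change of -0.25. Il1a, the alarmin interleukin-1α, was at 131, 211 and 233 CPM in ITGA5 fl/fl and at 81.7, 75.3 and 72.7 CPM in Myα5KO (log2 fold change -1.33, SE 0.15, edgeR adjusted p 0.000272). Control replicate 1 was again the lowest control and still above all Myα5KO libraries. Il6 fell by 0.95, Il1r1 by 0.62 and Il17ra by 0.47 on the log2 scale (edgeR adjusted p 0.0039, 0.00384 and 0.00495). Tnf, Myd88, Traf6 and Tlr4 were among the 7 not called, and Il17a had no count. With library-size scaling 4 of the list were lower and Tlr4 was higher, and on either FPKM scale only Il1a and Il1r1 were called. Il1b and Tlr2 lost their calls without ITGA5 fl/fl replicate 1, 2 or 3 or Myα5KO replicate 1. With the replicate block, and without Myα5KO replicate 3, Tnf was called lower and Il1b was not. Of the cytokines that drive neutrophil production, Csf3 (granulocyte colony-stimulating factor) fell from 16.2 ± 4.16 to 7.61 ± 1.07 CPM (SD, n = 3 each, log2 fold change -1.09, edgeR adjusted p 0.00188), while Il23a was not called and Csf2 was too low to test. Il1a, Il1b and Il6 were reported by the study as downregulated by RNA-seq, and Csf3 as decreased by PCR array. The direction of these genes is likewise not independent evidence. In its cultured macrophages the α5-blocking antibody did not significantly affect Csf3.

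Genes of the NF-κB pathway, whose consensus the shared promoter run matches, were also lower in part. Of 13 tested NF-κB and C/EBP genes 7 were called lower and 0 higher, with a median log2 fold change of -0.31. Nfkb1, which encodes the p50 precursor, was at 718, 673 and 671 CPM in ITGA5 fl/fl and at 446, 463 and 370 CPM in Myα5KO (log2 fold change -0.69, SE 0.08, edgeR adjusted p 0.000359). Nfkbib fell by 0.43, Nfkb2 by 0.39 and Relb by 0.38 on the log2 scale, with edgeR adjusted p of 0.00508, 0.00421 and 0.00323. The other genes called were Nfkbia, Bcl3 and Tnfaip3, which encode inhibitors or modulators of the pathway and are among its own targets. Rela, Rel and Cebpb were not called. With library-size scaling 4 of the list were lower and Cebpd was higher, and 4 were lower on either FPKM scale and without ITGA5 fl/fl replicate 2, ITGA5 fl/fl replicate 3 or Myα5KO replicate 1.

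Outside the cluster, genes with the shared promoter run went both ways. Of the 14 genes whose promoters held it, 4 were tested besides Cxcl1, Cxcl2 and Cxcl3. Hpn fell by 0.46 and Il16 rose by 0.69 on the log2 scale (edgeR adjusted p 0.0346 and 0.0141), and Lyzl4 and Zfp84 were not called. Of 650 tested genes outside the cluster with the NF-κB consensus in a promoter, 57 (8.77%) were lower and 25 (3.85%) were higher, beside 5.19% and 3.56% of all tested genes.

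Of 10 genes that act on mRNA decay, AU-rich or not, 1 was called lower and 0 higher, with a median of -0.05. The gene called was Zc3h12a (the endonuclease regnase-1, log2 fold change -0.32, edgeR adjusted p 0.0117). Zfp36 (tristetraprolin), which promotes the decay of AU-rich mRNAs, was at 0.21 on the log2 scale and was not called. Elavl1 (HuR), which stabilises AU-rich mRNAs, was at -0.10 and was not called either. With library-size scaling the related genes Zfp36l1 and Zfp36l2 were called higher, as was Zfp36 without Myα5KO replicate 1, and Zc3h12a lost its call without ITGA5 fl/fl replicate 2. Of 6 proteases that trim chemokines, Elane was called higher (log2 fold change 0.97, edgeR adjusted p 0.0237) at 2.11 to 7.45 CPM, and the other 5 were not called. Elane lost its call without ITGA5 fl/fl replicate 2 or Myα5KO replicate 1 and on either FPKM scale. Between 0 and 4 of the list were higher over the alternatives, with 2 in DESeq2 and with the replicate block, 3 with library-size scaling and 4 with no count filter.

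**Figure D4:**
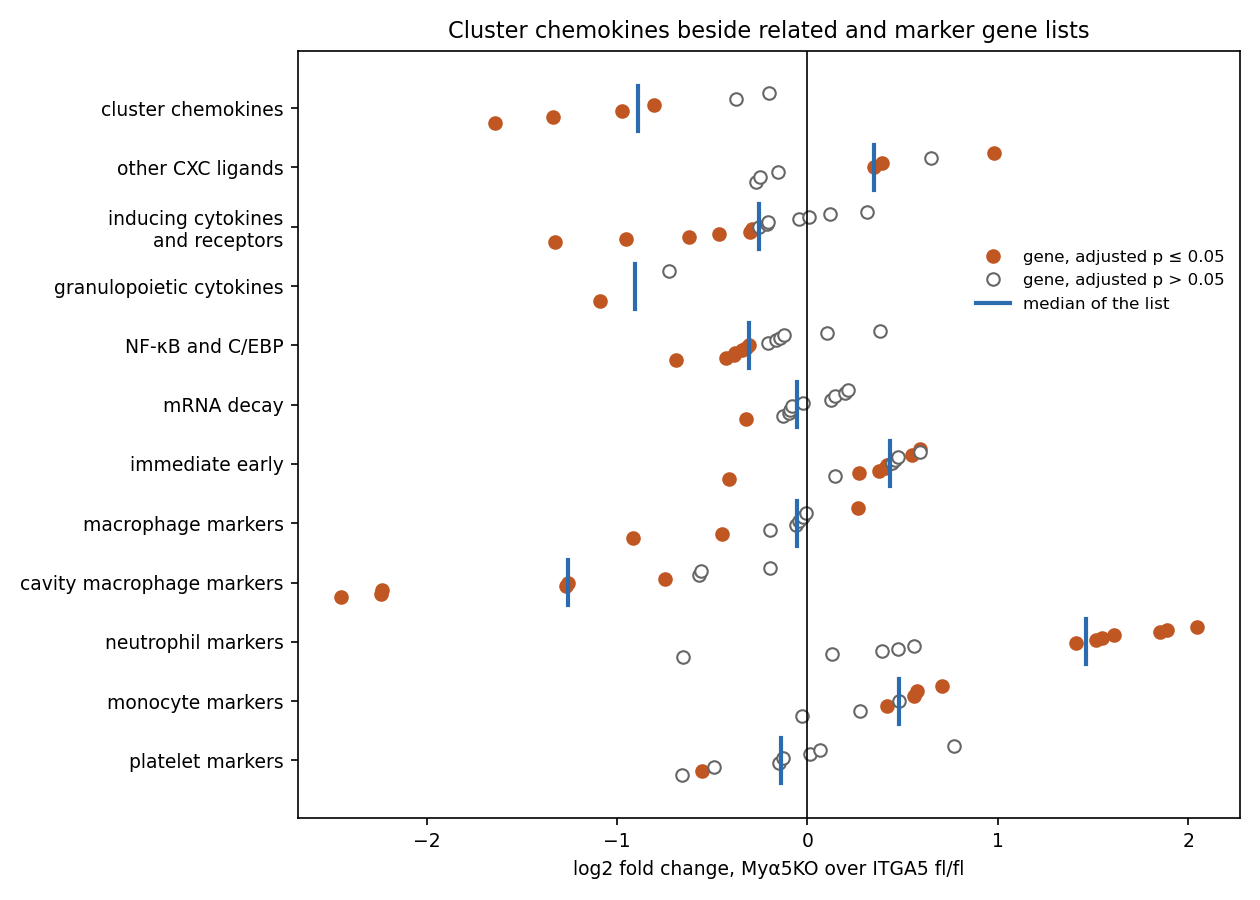
Log2 fold change of every tested gene in 12 gene lists (filled where the adjusted p was 0.05 or less), with the median of each list as a blue line. The cluster chemokines, the inducing cytokines and the NF-κB genes lie mostly left of 0, and the neutrophil and monocyte markers mostly right of it. Of the 7 other CXC ligands tested, 4 lie right of 0 and 3 left of it.

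Marker lists of other cells that a Ly6G- CD11b+ preparation can hold were read beside the chemokines. Neutrophil markers rose in 7 of 12 tested genes and fell in 0, among them Ltf by 2.05, Camp by 1.89, Ngp by 1.85 and Lcn2 by 1.61 on the log2 scale. On log2(FPKM + 1) only Ltf was called higher and on log2(FPKM + 0.1) 0 were, and Retnlg was called lower with no count filter and without ITGA5 fl/fl replicate 1. Their summed level was 235 to 296 CPM in ITGA5 fl/fl and 353 to 465 CPM in Myα5KO, opposite to the chemokines, while the defining marker Ly6g was under 1 CPM in every library. Of platelet and megakaryocyte markers 1 of 8 tested was lower (Selp, by 0.55 on the log2 scale) and 0 higher, with summed levels of 63.3 to 69.6 CPM in ITGA5 fl/fl and 50.5 to 57.3 CPM in Myα5KO. Most of these sums came from Selp, Gp1bb and Gp6 were at 0, and Gp5, Gp9 and Tubb1 were under 1 CPM in all libraries. Of the 14 markers listed, 6 stayed under 1 CPM in every library and 8 passed the filter on low counts. Pf4 was at 207 to 328 CPM in the same libraries, and its cell source was not tested.

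Monocyte markers were higher in 4 of 7 (Ly6c2 by 0.71, Ccr2 by 0.58 and Nr4a1 by 0.42 on the log2 scale among them), with sums of 1231 to 1359 CPM in ITGA5 fl/fl and 1641 to 1936 CPM in Myα5KO, and 2, Ly6c2 and Ccr2, were called on either FPKM scale. Nr4a1 is also in the list of immediate early genes below, so its call is counted in both lists. Resident cardiac macrophage markers were called in 0 of 8. Of 8 general macrophage markers, Lyz2 (by 0.92) and Cd14 (by 0.45) fell on the log2 scale and Fcgr1 rose by 0.27 (a call lost on either FPKM scale, whichever ITGA5 fl/fl library was left out, and without Myα5KO replicate 2), and Lyz2 is the locus that carries Cre. Immediate early genes, which enzymatic digestion of tissue can induce, were higher in 6 of 12 (Atf3 by 0.59, Fos by 0.55, Nr4a1 by 0.42 and Fosb by 0.41 among them) and lower in 1, Ier3, by 0.41 on the log2 scale. They summed to 9657 to 10976 CPM in ITGA5 fl/fl and to 10691 to 15269 CPM in Myα5KO, and 0 were called higher without ITGA5 fl/fl replicate 3 or on either FPKM scale, 3 without Myα5KO replicate 2 and 10 without Myα5KO replicate 1 or with no count filter. The part of these cell types and of digestion in the chemokine result was not tested.

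Where edgeR called 0 genes of one of these lists in a direction, DESeq2 and limma-voom called 0 as well. At an unadjusted p under 0.05, edgeR had 0 members higher, and it had 1 inducing gene, 1 NF-κB or C/EBP gene and 1 mRNA decay gene higher and 1 resident macrophage marker lower. It had 0 in that direction in the other lists described.

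As a description, the genes whose levels followed each member most closely over the 6 libraries were sought among 8297 genes with a mean of at least 10 CPM. Cxcl1 and Cxcl2 shared Arhgap6 (Pearson r of log2 CPM 0.998 and 0.996) and Psd (0.994 and 0.996) among their closest genes, with Mgea5 (0.995) beside them for Cxcl1 and Zkscan17 (0.996) for Cxcl2. For Cxcl3 they were Rac2 (0.997), Syvn1 (0.994) and Tcf7l2 (0.994). For Cxcl5 they were Usp36 (0.995), Msi2 (0.985) and Il1r1 (0.978), for Ppbp Krt80 (0.985), Dazap1 (0.963) and Tpi1 (0.962), and for Pf4 Ran (0.990), Anapc5 (0.990) and Palm (0.982). The genes named are the closest of 8297 over only 6 libraries, and such a selection yields high values readily. Whether the genotype difference or sequencing depth added to these values was not tested.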

How the data were processed

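RNA-seq libraries of Ly6G- CD11b+ cells from 3 ITGA5 fl/fl and 3 Myα5KO infarcts were analysed. Per the labels and the methods of the study, reads were aligned to mm10 (GRCm38.p6) with TopHat2 2.0.9, and the authors deposited HTSeq 0.6.1 counts per gene and FPKM. The deposited FPKM equal the count divided by the deposited gene length and a constant per library. Strand and multi-mapped reads are not described in the sources used here. Counts were tested with edgeR 4.0.16 (R 4.3.3, quasi-likelihood, TMM, filterByExpr with a minimum count of 10 and total of 15, Benjamini-Hochberg over all tested genes), with DESeq2 1.42.0, limma 3.58.1 (voom, and trend on log2(FPKM + 1) or log2(FPKM + 0.1)), other scalings and filters, a replicate block and each library left out as alternatives. Levels per transcript length were added after seeing the data. Ratios of members used 0.5 added per count. Scripts were tested on simulated data.

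The members and gene lists were chosen with earlier results of these data known. Genes named outside the members are, in each list, at most the 4 largest changes called, the tested genes within 500 kb, and the 3 most correlated genes per member. Other genes named, and the promoter and 3′ UTR letters searched, were chosen after their values were seen. A few listed genes are not reported here. Replicates of a group are separate libraries, and no label ties them to animals, so p-values measure the spread between libraries. Replicate pairs differed by 5.15 to 13.3 times the counting noise (chi-square per degree of freedom), so each counted as 1 sample.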

Additional observations from a re-analysis of the deposited data

How the results depend on the processing

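Cxcl1, Cxcl2 and Cxcl3 were called lower in all 16 alternatives, and no member changed direction in any of them. Cxcl5 kept its direction and lost its call in 3, at -1.21 on log2(FPKM + 0.1), at -0.70 on log2(FPKM + 1) and without ITGA5 fl/fl replicate 3. Leaving out each library in turn gave -1.55 to -1.11 for Cxcl5, -0.71 to -0.11 for Ppbp and -0.36 to -0.030 for Pf4, with Ppbp and Pf4 called only without ITGA5 fl/fl replicate 1, and 3 to 6 members lower. Over all genes, 517 were higher and 754 lower. The higher count became 1212 with library-size scaling, 798 with no count filter, 150 on log2(FPKM + 1), 142 on log2(FPKM + 0.1) and 187 to 420 with 1 library left out. The lower count became 322 and 306 on those FPKM scales and 429 to 671 with 1 library left out. The cause of these shifts was not tested. With the replicate block 464 genes were higher and 717 lower, the members were at -0.96 (Cxcl1), -0.81 (Cxcl2), -1.60 (Cxcl3), -1.33 (Cxcl5), -0.30 (Ppbp) and -0.18 (Pf4), and no member call changed. Same-numbered libraries did not deviate together over all tested genes (correlations 0.05, -0.07 and 0.04), which cannot exclude that the numbers pair the samples. Counts were fewest for Cxcl5 and Ppbp, at 19 to 181 per library.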

Other observations

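Other cells that can accompany cardiac macrophages were read from marker lists chosen in the same way. Of 8 fibroblast markers only the matrix gene Postn was called, lower by 0.40 on the log2 scale, and the list summed to 1620 to 1899 CPM in ITGA5 fl/fl, against 1211 to 1579 CPM in Myα5KO. Of 6 cardiomyocyte markers, the sarcomere genes Actc1 and Tnnt2 fell by 1.03 and 0.69, at means of 2.67 to 5.80 CPM. Endothelial markers went both ways, with Kdr, a receptor for vascular endothelial growth factor, higher by 0.26 and Cldn5, a tight junction gene, lower by 0.44 among 7 tested, and with library-size scaling 2 were higher and 0 lower. Of 7 dendritic cell markers Cd209a was higher by 0.57. Most of these calls changed with the setting. On either FPKM scale 0 of the fibroblast, endothelial and dendritic cell markers were called, and over the alternatives 0 to 4 fibroblast markers were lower and 0 to 3 dendritic cell markers higher. Kdr lost its call whichever library was left out. Actc1 was called lower in all 16 alternatives, and Tnnt2 lost its call on both FPKM scales and when ITGA5 fl/fl replicate 1 was left out, as it did without ITGA5 fl/fl replicate 3, Myα5KO replicate 1 or Myα5KO replicate 2.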
